A study of Danio rerio with 6 samples.

Results

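The genes described here build tight junctions and desmosomes, the contacts by which epithelial cells seal and hold together. They were all genes whose symbol in the platform's probe table begins with *cldn*, *ocln*, *tjp* and a digit, *dsc*, *dsg*, *dsp*, *pkp* and a digit or *jup*, or is *ppl*, and 51 of the 14434 named genes on the array met this rule. They comprise 37 claudins, the claudin domain gene *cldnd1a*, 2 occludins, 2 zonula occludens genes (*tjp*), 2 desmosomal cadherins, 1 desmoplakin, 3 plakophilins, 1 plakoglobin, 1 periplakin and *dscc1*, a sister chromatid cohesion gene that meets the rule by its letters only. The 51 genes were read by 69 features, and where a gene had several, the brightest on average across the 6 arrays stood for it. No feature was removed for low signal, so every gene entered the comparison.

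The embryos were whole AB zebrafish at sphere stage, a blastula stage. *ndr1*-injected embryos had received 50 pg of mRNA for the Nodal ligand gene *ndr1* in 1 nl of water, and control-injected embryos 1 nl of water alone. Each group had 3 arrays, and each array held RNA pooled from about 200 embryos. These are the labels' terms, from which the study's methods differ, with less *ndr1* mRNA and a control mRNA, *egfp*. Whether the 3 pools of a group came from separate clutches is not stated, so p-values reflect only how far these samples differ, technical differences included, and by the labels no mRNA was injected into the control embryos.

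Claudins are membrane proteins whose strands close the space between neighbouring epithelial cells, occludin is a further membrane protein of these strands, and the zonula occludens proteins are scaffolds that tie them to actin. In desmosomes, desmocollins and desmogleins bridge the cells, and plakoglobin, plakophilins and desmoplakin link them to keratin filaments. In the zebrafish blastula the outermost cells form the enveloping layer, a thin keratin-rich epithelium sealed by tight junctions, while the deep cells below give rise to the germ layers that Nodal signalling patterns.

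After the authors' normalisation the array medians were 8.70 to 8.71 on the log2 scale, and the correlation between arrays over all features was 0.920 to 0.926 among *ndr1*-injected and 0.836 to 0.886 among control-injected arrays. Between arrays of different groups it was 0.820 to 0.928, a range that overlaps both. The 7 blastula markers examined, among them *pou5f3*, *nanog* and *cdh1*, all lay above the 80th percentile of signal, and of 5 genes of differentiated tissues 0 did. The margin was small, since the dimmest blastula marker, *vent*, lay at 80.2 and the brightest of those 5, the insulin gene *ins*, at 75.3. The injected gene *ndr1* read 13.79, 14.85 and 13.89 on the *ndr1*-injected arrays, against 10.61, 10.10 and 10.87 on the control-injected arrays (log2 signal). The groups did not overlap, the difference was 3.65 ± 0.37 (SE) and the adjusted p of the limma fit was 0.0658, so even the injected gene missed the threshold of 0.05. In that fit over all genes 3 genes, or 0.0208%, passed.

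Most claudin features were dim and the scaffold features bright. Of the 37 claudins 29 had a mean signal below the median of all named genes, and 12 lay in the lowest 20%, whereas 4 lay in the highest 20%. These 4 were *cldnd* at the 99.0th percentile, *cldn7b* at 98.4, *cldng* at 97.7 and *cldne*, a claudin of the enveloping layer, at 91.2. Both occludins and both *tjp* genes were also in the highest 20%, with *oclna* at 96.5, *oclnb* at 85.7, *tjp2b* at 85.7 and *tjp3* at 82.1. Among the 8 desmosome genes only the plakoglobin gene *jupa* reached it, at 81.1, and the desmocollin gene *dsc2l* was lowest, at 16.4. Signals of different features depend on the probe as well as the transcript, and no detection calls were used here, so a percentile places a feature on the array and does not rank transcripts.

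**Figure D1:**
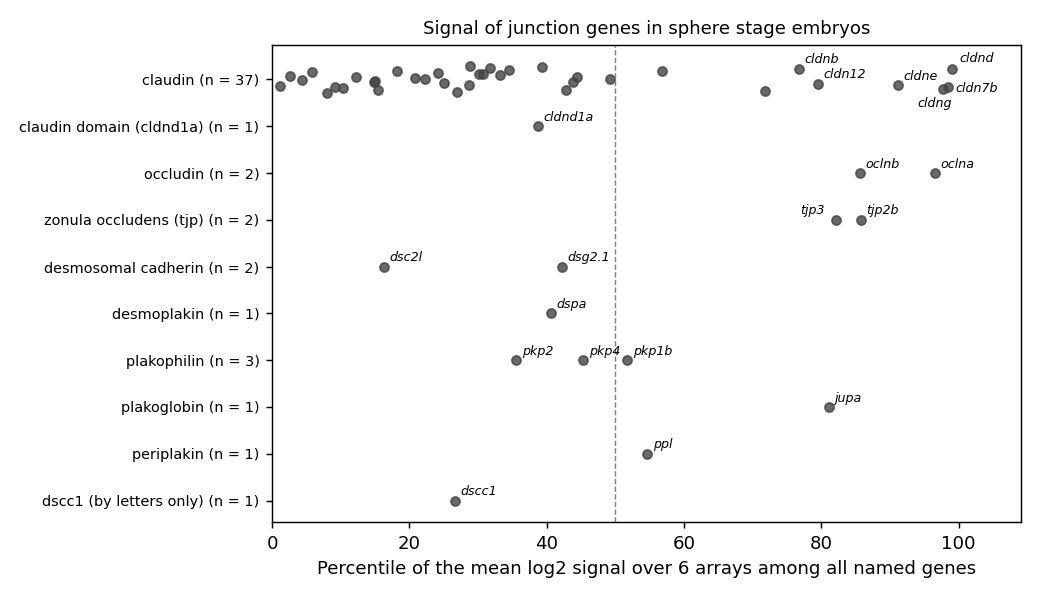
Percentile of each junction gene's mean log2 signal over the 6 arrays among the 14434 named genes, by family, with 1 point a gene and the dashed line at the median of all genes. Of the 37 claudins 29 lie left of the line, while both occludins, both *tjp* genes and *jupa* lie above the 80th percentile.

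The question for these genes was whether raised Nodal signalling alters junction transcripts in the blastula. No junction gene passed the test. With limma over all 14434 genes 0 of the 51 reached an adjusted p below 0.05, the lowest being 0.711, against 0.0208% of all genes. At an unadjusted p of 0.02 or less 1 junction gene was higher and 0 were lower, or 1.96%, against 2.74% of all genes, of which 1.72% were higher and 1.02% lower. That 1 gene was *cldn8.3*. Leaving out single arrays gave 4 higher without *ndr1*-injected replicate 2, 2 without control-injected replicate 1 and 0 without any other array. The share of all genes, in either direction, was 3.77% and 3.07% in these 2 fits, and 1.35% to 5.33% over all fits with an array left out. At an unadjusted p of 0.05 or less there were 4 higher and 1 lower, or 9.80%, against 6.93% of all genes, 4.34% higher and 2.59% lower. The groups did not overlap for 4 junction genes, 2 higher and 2 lower, or 7.84%, against 14.0% of all genes, 8.11% higher and 5.86% lower. *cldna* and *tjp3* were the 2 higher and *cldng* and *cldn7b* the 2 lower.

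The differences lay on both sides of 0. In *ndr1*-injected relative to control-injected embryos 29 junction genes had a positive and 22 a negative difference, with a median of 0.08, against 0.006 over all genes, and they ranged from -1.05 for *cldni* to 1.62 for *cldna*. Over the 37 claudins the median was 0.06, and over the 8 desmosome genes 0.14. The sign of the median rests on single arrays, since it was -0.08 without *ndr1*-injected replicate 2 and -0.02 without *ndr1*-injected replicate 1. In whole embryos a change in the number of cells of a type and a change in the RNA of each cell cannot be told apart.

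Changes were bounded most closely among the brightest junction genes. For 14 of the 51 junction genes the 95% interval of the difference lay within 2-fold either way, against 42.5% of all genes. Of the 9 junction genes in the highest 20% of signal 7 were bounded in this way, with a median standard error of 0.24. Of the 29 in the middle 4 were, with 0.40, and of the 13 in the lowest 20% 3, with 0.41, so below the brightest genes there was no steady rise with signal. For all genes in the highest and lowest 20%, 86.2% and 21.0% were bounded, with median standard errors of 0.24 and 0.39. For the other 37 junction genes a 2-fold change in at least 1 direction lies within the interval.

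**Figure D2:**
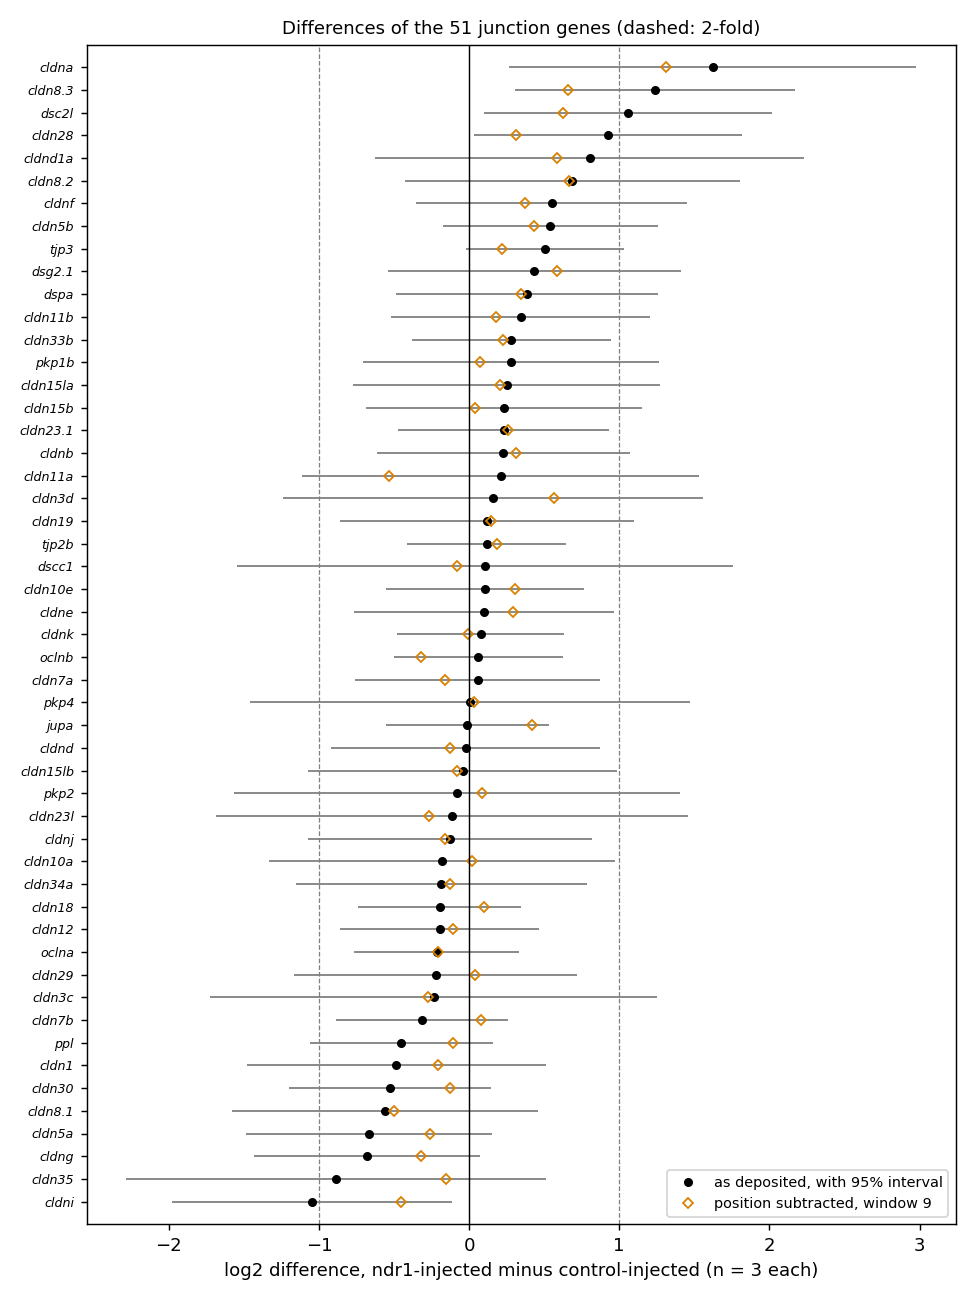
Difference in log2 signal of each of the 51 junction genes, *ndr1*-injected minus control-injected (n = 3 arrays each). Black points and lines give the values as deposited with their 95% interval, open diamonds the values after subtraction of the local position trend, and dashed lines 2-fold. Only *cldna*, *cldn8.3*, *dsc2l*, *cldn28* and *cldni* have an interval that leaves out 0, and none passed the test over all genes.

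The junction genes with the smallest unadjusted p were mostly dim claudins. *cldn8.3* read 8.81, 7.78 and 8.53 on the *ndr1*-injected arrays, against 7.78, 6.68 and 6.94 on the control-injected arrays. The second *ndr1*-injected array was level with the highest control-injected array, so the groups overlapped by a very small margin. The difference was 1.24 ± 0.39 (SE; unadjusted p 0.0163 and adjusted p 0.711 by limma).

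*cldna* read 9.76, 7.34 and 9.04 on the *ndr1*-injected arrays, against 7.05, 7.15 and 7.08 on the control-injected arrays. The control-injected arrays lay within a narrow band, and of the *ndr1*-injected arrays replicates 1 and 3 were well above it and replicate 2 just above it. The groups did not overlap, the difference was 1.62 ± 0.57 (SE; unadjusted p 0.0252, adjusted p 0.711 by limma), and by an exact permutation test, two-sided, p was 0.1, which is as low as 3 arrays against 3 can go. Its other feature, nearly as bright, went the other way by -0.35, with 7.63, 8.15 and 6.71 on the *ndr1*-injected and 7.97, 8.12 and 7.46 on the control-injected arrays, so the positive difference of *cldna* rests on 1 of its 2 features.

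*cldn28* read 8.06, 6.75 and 7.90 on the *ndr1*-injected arrays, against 6.59, 6.47 and 6.86 on the control-injected arrays, a difference of 0.93 ± 0.38 (SE; adjusted p 0.712 by limma). The desmocollin gene *dsc2l* read 9.04, 7.65 and 8.74 on the *ndr1*-injected arrays, against 7.83, 7.19 and 7.24 on the control-injected arrays, a difference of 1.06 ± 0.41 (SE; adjusted p 0.712 by limma). In both genes, as in *cldn8.3* and *cldna*, *ndr1*-injected replicate 2 was the lowest of its group and replicate 1 the highest, and in *cldn28* and *dsc2l* replicate 2 lay among the control-injected values.

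*cldni* was the junction gene with the lowest difference. It read 8.29, 7.45 and 7.30 on the *ndr1*-injected arrays, against 9.23, 8.85 and 8.11 on the control-injected arrays. *ndr1*-injected replicate 1 was above control-injected replicate 3, so the groups overlapped, and the difference was -1.05 ± 0.39 (SE; unadjusted p 0.0323, adjusted p 0.711 by limma). Its other feature differed by -0.23.

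Among the bright claudins, *cldng* read 12.78, 13.78 and 13.58 on the *ndr1*-injected arrays, against 13.93, 14.30 and 13.95 on the control-injected arrays. All *ndr1*-injected values were below all control-injected values, with replicate 1 farthest down. The difference was -0.68 ± 0.32 (SE; adjusted p 0.714 by limma, exact two-sided permutation p = 0.1). It was -0.38 without *ndr1*-injected replicate 1, and -0.32 with overlapping groups once a trend over the array surface, the position trend, was subtracted. Its other feature differed by -0.68, or by -0.22 with that trend subtracted, and as deposited the groups overlapped by a small margin, with 12.44, 13.71 and 13.43 on the *ndr1*-injected and 13.68, 14.14 and 13.80 on the control-injected arrays.

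*cldn7b*, named here because its groups did not overlap, read 13.67, 14.24 and 14.12 on the *ndr1*-injected arrays, against 14.26, 14.28 and 14.43 on the control-injected arrays. The gap between the groups was small, and the difference was -0.31 ± 0.24 (SE), or 0.08 once the position trend was subtracted. *cldnd*, the claudin with the highest signal, read 13.97, 15.01 and 15.19 on the *ndr1*-injected arrays, against 14.34, 14.98 and 14.92 on the control-injected arrays. The control-injected values lay within the range of the *ndr1*-injected values, the difference was -0.02 ± 0.38 (SE) and its 95% interval -0.92 to 0.87.

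*cldne*, the claudin known from the enveloping layer, read 13.01, 11.72 and 12.62 on the *ndr1*-injected arrays, against 12.38, 12.08 and 12.59 on the control-injected arrays. *ndr1*-injected embryos held both the highest and the lowest value, and the difference was 0.10 ± 0.37 (SE), with a 95% interval of -0.76 to 0.97. It is read by 4 features, of which the 3 bright ones differed by 0.10, 0.12 and -0.09 and the dim one by 0.29. On all 3 bright features *ndr1*-injected replicate 1 was the highest and replicate 2 the lowest of the 6 arrays, so this spread was common to separate probes of the gene.

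**Figure D3:**
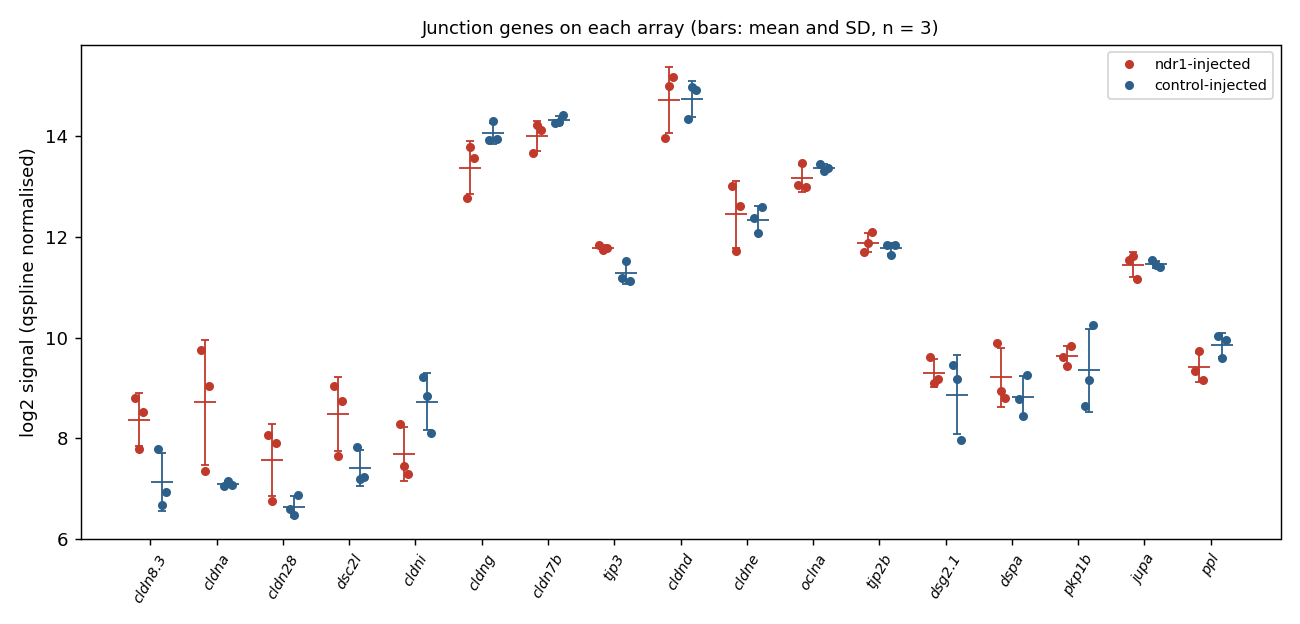
log2 signal of 17 junction genes on each array, *ndr1*-injected in red and control-injected in blue, with the mean and SD of each group (n = 3). The groups are apart for *cldna*, *cldng*, *cldn7b* and *tjp3* and overlap for the other 13 genes.

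The occludin and zonula occludens genes were bright and closely measured. The occludin gene *oclna* read 13.04, 13.47 and 12.99 on the *ndr1*-injected arrays, against 13.45, 13.32 and 13.38 on the control-injected arrays, and *oclnb* 11.92, 11.59 and 12.07, against 11.79, 11.63 and 11.96. In both genes the groups overlapped. As deposited the differences were -0.22 ± 0.23 and 0.06 ± 0.24 (SE), and their 95% intervals, -0.77 to 0.33 and -0.50 to 0.62, leave out a 2-fold change. Once the position trend was subtracted, *oclna* was at -0.21 ± 0.21 and *oclnb* at -0.32 ± 0.32 (SE). The sign of *oclnb* thus turned and its standard error grew, so its bound is that of the deposited values only.

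The scaffold gene *tjp2b* read 11.70, 11.88 and 12.09 on the *ndr1*-injected arrays, against 11.84, 11.64 and 11.84 on the control-injected arrays, with overlapping groups, a difference of 0.12 ± 0.22 (SE) and a 95% interval of -0.41 to 0.65. *tjp3* read 11.84, 11.75 and 11.77 on the *ndr1*-injected arrays, against 11.18, 11.53 and 11.13 on the control-injected arrays. All *ndr1*-injected values were higher, and the difference was 0.51 ± 0.22 (SE), 1.42-fold, with an adjusted p of 0.712 by limma. The exact two-sided permutation p was 0.1, as for every gene without overlap. The 95% interval, -0.02 to 1.03, holds both 0 and a 2-fold rise. A further *tjp3* feature of about the same signal read 12.05, 11.94 and 11.76 on the *ndr1*-injected and 11.22, 11.34 and 10.78 on the control-injected arrays, again without overlap and with a difference of 0.81. Of the 16 junction genes with several features, *tjp3* was the 1 whose features all separated the groups. How often this held among all genes with several features was not counted. After subtraction of the position trend the 2 *tjp3* features differed by 0.22 and 0.18, and on the first the groups overlapped.

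The 8 desmosome genes had a median standard error of 0.41, with *jupa* at 0.23 and *ppl* at 0.26, and the groups overlapped in each of them. The desmoglein gene *dsg2.1* read 9.61, 9.10 and 9.18 on the *ndr1*-injected arrays, against 9.46, 9.17 and 7.97 on the control-injected arrays, a difference of 0.43 ± 0.41 (SE) in which control-injected replicate 3 stood below the other arrays, and without that array the difference was -0.014. The desmoplakin gene *dspa* read 9.89, 8.94 and 8.81 on the *ndr1*-injected arrays, against 8.78, 8.44 and 9.26 on the control-injected arrays, a difference of 0.39 ± 0.37, or 0.05 without *ndr1*-injected replicate 1 and 0.19 without control-injected replicate 2. As deposited the differences of *dsg2.1* and *dspa* were about 1 standard error. Once the position trend was subtracted they were 0.58 ± 0.31 and 0.35 ± 0.25 (SE), and the groups still overlapped in both.

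As deposited the plaque genes showed no common direction. The plakoglobin gene *jupa* read 11.54, 11.63 and 11.17 on the *ndr1*-injected arrays, against 11.54, 11.44 and 11.40 on the control-injected arrays, a difference of -0.01 ± 0.23 (SE) with a 95% interval of -0.55 to 0.53. Its dimmer feature differed by 1.04, with control-injected replicate 3, at 7.48, far below the other arrays, and after subtraction of the position trend the bright feature was at 0.42.

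Of the plakophilins, which are armadillo repeat proteins of the plaque, *pkp1b* read 9.63, 9.43 and 9.84 on the *ndr1*-injected arrays, against 8.64, 9.16 and 10.25 on the control-injected arrays, a difference of 0.28 ± 0.42, or -0.076 without control-injected replicate 1. *pkp2* and *pkp4* differed by -0.08 and 0.01, with control-injected values that ran from 7.36 to 9.80 and from 7.73 to 10.35. Their 95% intervals, -1.57 to 1.40 and -1.46 to 1.47, leave a 2-fold change in either direction possible. Once the position trend was subtracted, *pkp1b*, *pkp2* and *pkp4* were at 0.07 ± 0.27, 0.09 ± 0.24 and 0.03 ± 0.20 (SE). All of these were then positive, but each was smaller than its standard error. The plakin gene *ppl* read 9.33, 9.73 and 9.17 on the *ndr1*-injected arrays, against 10.03, 9.59 and 9.96 on the control-injected arrays, a difference of -0.45 ± 0.26, with *ndr1*-injected replicate 2 above control-injected replicate 2, or -0.11 once the position trend was subtracted.

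The other claudins filled the range between these. Among those whose mammalian relatives are known from particular barriers, the endothelial claudin 5 genes *cldn5a* and *cldn5b* differed by -0.67 ± 0.35 and 0.54 ± 0.30 (SE), in opposite directions. *cldn11a* and *cldn11b*, whose mouse relative is a claudin of myelin, differed by 0.21 and 0.34, and *cldn15la*, *cldn15lb* and *cldn15b*, whose mouse relative is a claudin of the gut, by 0.25, -0.04 and 0.23. *cldn1*, relative of a mouse claudin of the skin barrier, differed by -0.48, *cldn18*, relative of one of stomach and lung, by -0.20, and *cldn19*, relative of one of kidney and retina, by 0.12. None of these differences exceeded 2 standard errors, and of these 10 genes only *cldn18* had a mean signal above the median of all genes.

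Among the widest intervals were those of *cldn23l*, -1.69 to 1.46, *cldn3c*, -1.72 to 1.25, *cldnd1a*, -0.62 to 2.23, and *cldn3d*, -1.24 to 1.56, which hold changes of over 2-fold in both directions, except that *cldnd1a* is bounded below. *cldn35* differed by -0.89 ± 0.59 (SE), *cldn8.2* by 0.69 ± 0.47, *cldn8.1* by -0.56 ± 0.43, *cldnf* by 0.55 ± 0.38 and *cldn30* by -0.53 ± 0.29. The remaining claudins, *cldnb*, *cldnj*, *cldnk*, *cldn7a*, *cldn10a*, *cldn10e*, *cldn12*, *cldn23.1*, *cldn29*, *cldn33b* and *cldn34a*, lay between -0.22 and 0.28. *dscc1*, which is no junction gene, differed by 0.11 ± 0.70, and without it the median of the other 50 was 0.07.

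Of 3 relatives that carry such a name only after symbols were updated, and so fell outside the rule, *cldn2* read 9.06, 9.37 and 9.80 on the *ndr1*-injected arrays, against 9.01, 8.32 and 8.53 on the control-injected arrays. These groups did not overlap, by a small margin, and the difference was 0.79 ± 0.30 (SE; adjusted p 0.711 by limma). *cldn10b* and *pkp3a* differed by 0.03 and 0.47.

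Features of the same gene often differed in sign. The platform reads 16 of the 51 junction genes by more than 1 feature, and for 7 of these all features had the same sign. *cldng*, *cldnf*, *cldni*, *cldn10e*, *cldn23.1*, *pkp1b* and *tjp3* were those 7. The share among all genes with several features was not counted. Some opposite signs were those of differences near 0, as in *cldnb*, at 0.23 ± 0.38 and -0.15 ± 0.39 (SE). In *cldn30* the features differed by -0.53 and 0.73, and in *cldn12* by -0.20 and 0.84, where control-injected replicate 3, at 8.35, was far below the other 5 arrays, at 10.47 to 10.92. The mean of all features in place of the brightest left 0 junction genes called.

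These differences moved with where the feature lay on the array. The array surface carried a smooth trend, and for each feature the median deviation of the surrounding 9 by 9 features from the median array was taken as its local value. Over the 51 junction genes the difference of a gene's own feature and the difference of its surroundings had a correlation of 0.737, and over all genes of 0.647, given as descriptions only, since features near each other share the same local value. The signs agreed for 37 of the 51 junction genes, and for 10816 of all 14434 genes. The surroundings of *cldn8.3* differed by 0.58, of *cldn28* by 0.61, of *dsc2l* by 0.43, of *cldna* by 0.31 and of *cldni* by -0.59, each in the direction of the gene itself.

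With the local value subtracted, *cldna* was at 1.31, *cldn8.3* at 0.66, *dsc2l* at 0.63, *cldn28* at 0.31 and *cldni* at -0.45. Of the 4 junction genes with a difference of 1 or more in size as deposited, 1, *cldna*, kept it. Over all genes 723 had a difference of that size as deposited, and 191 with the local value subtracted. The groups of *cldna* remained apart, with 9.14, 7.76 and 8.60 on the *ndr1*-injected and 7.27, 7.03 and 7.24 on the control-injected arrays. Its adjusted p by limma was 0.690. The other *cldna* feature still went the other way, at -0.32 with the local value subtracted. With the local value subtracted 30 junction genes had a positive and 21 a negative difference, with a median of 0.07, against 0.05 over all genes. The median standard error of the junction genes was then 0.26, against 0.39 as deposited. The interval lay within 2-fold for 35 of them, or 68.6%, against 67.3% of all genes, and still 0 junction genes passed. At an unadjusted p of 0.05 or less there were 2, *cldna* and *cldn8.1*, against 5.89% of all genes. The groups did not overlap for 4 junction genes, or 7.84%, against 12.4% of all genes, and these were *cldna*, *cldn5b* (0.43), *cldn10e* (0.31) and *cldn8.1* (-0.50).

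**Figure D4:**
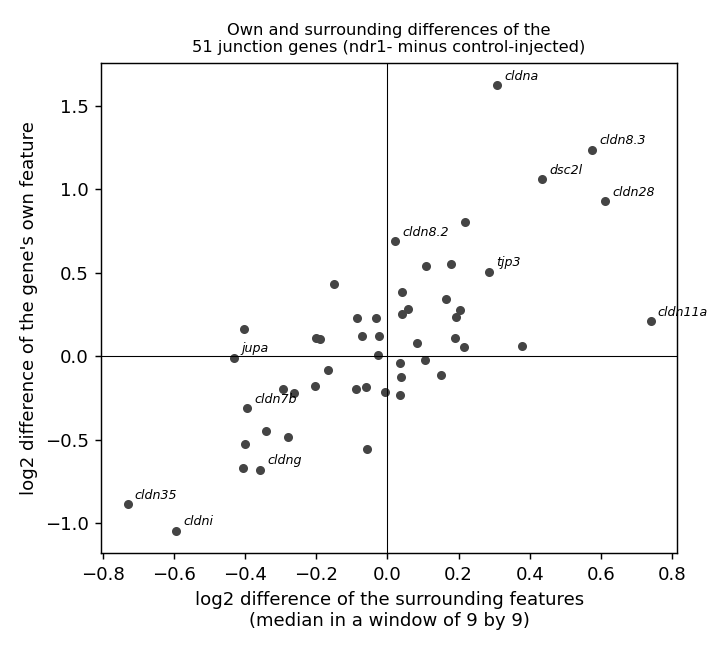
Difference in log2 signal, *ndr1*-injected minus control-injected, of each of the 51 junction genes against the difference of the features around it on the array, with 1 point a gene. *cldn8.3*, *dsc2l* and *cldn28* at the top right and *cldni* and *cldn35* at the bottom left have surroundings that differ in the same direction by 0.43 or more in size, and *cldna* lies farthest above the others.

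Many of these genes lie beside each other in the genome. In the order of protein-coding genes of the GRCz12tu RefSeq annotation, 20 of the 51 junction genes stand in 6 unbroken runs. The longest run holds 7 claudins, *cldn3c*, *cldn3d*, *cldnb*, *cldn29*, *cldnd*, *cldn28* and *cldn30*, with differences of -0.24, 0.16, 0.23, -0.22, -0.02, 0.93 and -0.53. Differences within this run had either sign, and the signals ran from the 2.7th percentile for *cldn28* to the 99.0th for *cldnd* beside it.

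A second run of 4 claudins, *cldnj*, *cldne*, *cldnf* and *cldna*, had differences of -0.12, 0.10, 0.55 and 1.62, and signals at the 9.2th, 91.2th, 31.7th and 15.5th percentile by their brightest features. The run of *cldn8.2*, *cldn8.3* and *cldn8.1* had differences of 0.69, 1.24 and -0.56, with all 3 in the lowest 20% of signal. The desmosomal cadherins *dsc2l* and *dsg2.1* adjoin each other, at 1.06 and 0.43.

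Within the groups, several claudins varied from array to array in either of 2 opposite ways, a pattern noticed in the values, with its genes chosen from them, and described here without a test. In *cldne* and *cldnb*, an epithelial claudin, *ndr1*-injected replicate 1 was the highest of its group and control-injected replicate 2 the lowest of its own. The keratin genes *krt4*, *krt5* and *krt8*, which mark the enveloping layer, had the same order, with *krt8* at 13.90, 12.12 and 12.86 on the *ndr1*-injected and 13.13, 12.41 and 13.28 on the control-injected arrays. Among the 14 enveloping layer genes measured 6 followed this order, or 42.9%, among the 51 junction genes 12, or 23.5%, and among all genes 10.6%.

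In *cldng* and *cldnd* the order was turned round, with *ndr1*-injected replicate 1 lowest and control-injected replicate 2 highest. The maternally supplied transcription factor genes *sox19b* and *nanog* showed this order too, but of the 7 blastula genes these were 2, another 2 had the opposite order, that of *cldne*, and 3 had neither. *sox19b* read 13.05, 14.05 and 13.73 on the *ndr1*-injected and 13.95, 14.33 and 13.81 on the control-injected arrays. This order held for 5 of the 51 junction genes, or 9.80%, and for 14.4% of all genes. Among bright features, above the 80th percentile, it held for 2 of 9 junction genes, or 22.2%, and for 21.8% of all such genes. With the position trend subtracted, *krt5*, *krt8*, *cldnd* and *sox19b* kept their order and *cldne*, *cldnb*, *krt4*, *cldng* and *nanog* did not. Over whole lists, the order described for *cldne* then held for 7 of the 14 enveloping layer genes, or 50%. That order held for 10 of the 51 junction genes, or 19.6%, in part other genes than before, and for 10.02% of all genes. Above the 80th percentile it held for 0 of 9 junction genes and for 8.69% of all such genes. The turned order held for 6 of the 51 junction genes, or 11.8%, and for 15.9% of all genes. The part that the enveloping layer cells of each pool had in these values was not tested.

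**Figure D5:**
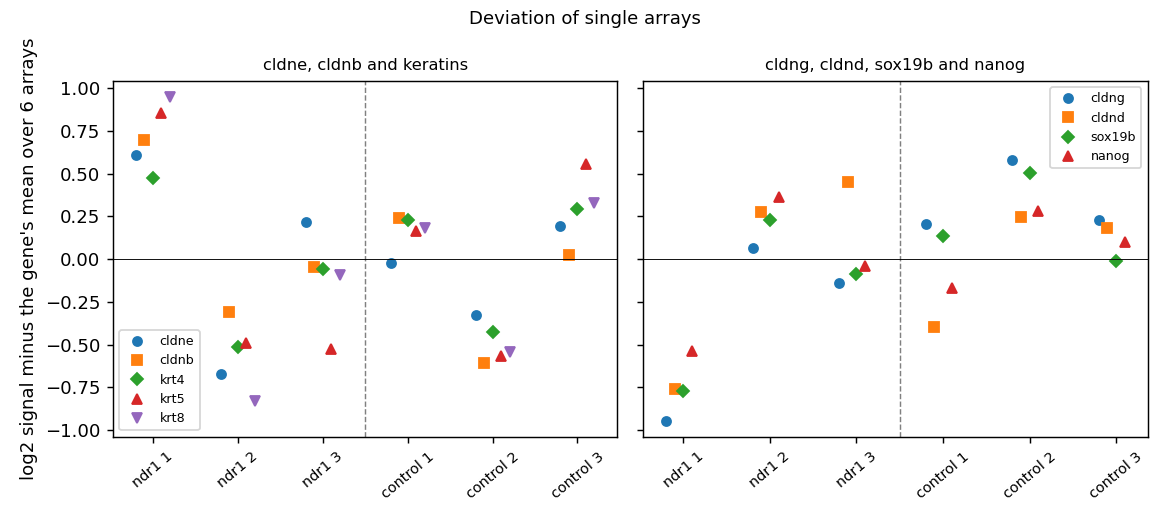
log2 signal of single genes on each array, minus the gene's mean over all 6 arrays, for *cldne*, *cldnb* and 3 keratins on the left and for *cldng*, *cldnd*, *sox19b* and *nanog* on the right, with *ndr1*-injected arrays before control-injected arrays in each panel. On the left *ndr1*-injected replicate 1 is highest and control-injected replicate 2 low, and on the right *ndr1*-injected replicate 1 is lowest.

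Other genes of cell contacts and of the outer layers were counted in the same fit. Of 29 tight junction partner and polarity genes measured 0 passed, 3 were higher and 0 lower at an unadjusted p of 0.05 or less by limma, against 4.34% higher and 2.59% lower over all genes, 17 had a positive and 12 a negative difference, and the median was 0.11. The polarity gene *pard3bb* read 9.19, 8.32 and 9.16 on the *ndr1*-injected arrays, against 7.97, 7.57 and 7.36 on the control-injected arrays, a difference of 1.26 ± 0.32 (SE; adjusted p 0.689 by limma) that was 0.79 once position was subtracted. The scaffold gene *magi1b* and the apical determinant gene *crb2a* differed by 0.65 ± 0.21 and 0.96 ± 0.35, or 0.31 and 0.35 once position was subtracted. All 3 had groups that did not overlap. This held for 4 of the 29, all of them higher, against 8.11% higher and 5.86% lower over all genes.

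Of 13 adherens junction genes 0 passed and 1 was higher at an unadjusted p of 0.05 or less by limma, against 4.34% of all genes, with a median of 0.06. The groups did not overlap for 3 that were higher and 0 that were lower, against 8.11% higher and 5.86% lower over all genes. The gene of this list with the smallest p was *vcla*, which encodes the actin linker vinculin, at 9.04, 8.74 and 9.04 on the *ndr1*-injected arrays, against 7.88, 7.59 and 7.43 on the control-injected arrays, a difference of 1.31 ± 0.24 (SE; adjusted p 0.402 by limma), and of 0.68 once position was subtracted. *cdh2*, or N-cadherin, differed by 0.50 ± 0.27, or 0.30 once position was subtracted, and the beta-catenin gene *ctnnb1* by 0.51 ± 0.27. *ctnnb1* read 14.06, 13.92 and 14.30 on the *ndr1*-injected arrays, against 13.65, 13.17 and 13.93 on the control-injected arrays, with overlapping groups, and with the feature brightest in control-injected arrays its difference was -0.44.

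Of 14 plakin and keratin anchor genes 0 passed and 1 was higher at an unadjusted p of 0.05 or less by limma, against 4.34% of all genes, with a median of -0.02. The keratin gene *krt18a.1* read 14.21, 13.13 and 13.37 on the *ndr1*-injected arrays, against 12.15, 11.83 and 12.39 on the control-injected arrays, a difference of 1.45 ± 0.34 (SE; adjusted p 0.623 by limma), or 0.92 once position was subtracted. *evpla*, which encodes the plakin envoplakin, and the keratin gene *krt17* differed by 0.90 ± 0.39 and 0.57 ± 0.30, or 0.41 and 0.20 once position was subtracted. As deposited the groups of 3 of the 14 genes did not overlap, all of them higher, against 8.11% higher and 5.86% lower over all genes. They were these 3, which were named for their small p.

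Of 14 enveloping layer genes, among them all the keratins just named, 0 passed and 1 was higher at an unadjusted p of 0.05 or less by limma, against 4.34% of all genes, with 10 positive and 4 negative differences and a median of 0.25. In this list the groups did not overlap for 3 that were higher and 1 that was lower, against 8.11% higher and 5.86% lower over all genes. The annexin gene *anxa1c* differed by -0.78 ± 0.36 (SE), without overlap, or -1.21 once position was subtracted. The keratins *krt4*, *krt5* and *krt8*, which had the array order of *cldne*, differed by -0.06, -0.11 and 0.02, and *cldne* by 0.10. Of 8 yolk syncytial layer genes 0 passed, 2 were higher and 1 lower at an unadjusted p of 0.05 or less by limma, against 4.34% higher and 2.59% lower over all genes. The list had 5 positive and 3 negative differences, with a median of 0.44. The transcription factor genes *gata5* and *gata6* and the iron exporter gene *slc40a1* differed by 2.06, 2.31 and -1.24, or 2.19, 2.27 and -0.58 once position was subtracted. *mxtx2*, a further gene of the list, differed by -0.04. The paper also names Gata5 among the factors that induce *sox32*, an endodermal determinant gene, so *gata5* is not particular to the yolk syncytial layer. Over the 8 genes of the list the groups did not overlap for 3 that were higher and 1 that was lower. Over all genes this held for 8.11% higher and 5.86% lower.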

How the data were processed

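Total RNA of pooled whole embryos was labelled with a fluorescent dye and hybridised to 1-colour Agilent zebrafish arrays, 3 for *ndr1*-injected and 3 for control-injected embryos. The authors scanned the arrays, normalised them by qspline and deposited 1 value per feature and array, which are log2 values as read from their range. Their background correction is not given in the sources used here. No detection calls were used. The 6 sample columns were all used, and 0 further columns of samples were left aside.

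Of 45220 features, 21061 carry 1 gene symbol in the platform table, 0 carry several, and the 21061 formed 14434 genes. The other 24159 are not listed there and were left out as unnamed. Symbols were updated by Entrez identifier for 20133 features and by accession for 409, and kept for 519. The neighbours of the 51 junction genes, all matched, were read from the RefSeq annotation of GRCz12tu. The array build is not given in the sources used here, so no positions are printed, and no sequences were used here.

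Groups followed the sample titles and treatments. The comparison was fitted with limma 3.58.1 in R 4.3.3 (lmFit and eBayes) over all 14434 genes with Benjamini-Hochberg adjustment, with calls at adjusted p values under 0.05. The paper gives a cutoff of 0.02 without naming an adjustment, and unadjusted p-values of 0.02 or less were counted as well. Intervals are 95% intervals of that fit, not adjusted for the number of genes, and 3 arrays a group limit their precision. The fit was tested on simulated data first. The position trend was taken from a grid of 85 by 532 features, inferred from feature numbers, over which neighbouring features had a correlation of 0.527 in their deviations.

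The members and all gene lists (tight junction partners and polarity, adherens junction, plakins and keratin anchors, enveloping layer, yolk syncytial layer, blastula and differentiated tissue) were chosen with earlier results of these data known. Named with full values were junction genes with an unadjusted p of 0.05 or less, those whose groups did not overlap with a difference of 0.5 or more in size, the brightest gene of each family and *cldne*. Up to 3 genes with the smallest p of each other list were named too, and *cldn7b*, *oclnb*, *mxtx2* and the genes of the array order were chosen after their values were seen. The 16 alternatives tried were a replicate block, quantile normalisation, median centring, a filter on dim features, robust variances with an intensity trend, weights for arrays, other rules for genes with several features, subtraction of the position trend with windows of 9 and 25 features, and each array left out.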

Additional observations from a re-analysis of the deposited data

How the results depend on the processing

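No junction gene was called under any of the 16 alternatives, with a lowest adjusted p by limma of 0.338. The filter on dim features left out some dim junction genes, *cldn8.3* and *cldn28* among them, which were fitted in 15 alternatives. Of the 51, 19 kept their sign in every alternative in which they were fitted. Over all genes 3 were called higher and 0 lower, against 0 with the replicate block, 5 higher with array weights, 16 and 24 higher with position subtracted (windows 9 and 25), and 24 higher and 3 lower with an intensity trend and robust variance. Junction genes at an unadjusted p of 0.02 or less, 1 higher and 0 lower, numbered 2 higher and 1 lower with the replicate block, 3 and 1 with the trend, 0 and 1 with array weights, 2 higher with the mean of all features and 0 higher without the dimmest 25% of features. In the same order the share of all genes, in either direction, was 2.62%, 2.83%, 3.60%, 3.15% and 2.60%. Junction genes whose groups did not overlap were 2 higher and 2 lower as deposited. The lower ones numbered 1 under quantile normalisation and under either position window. The higher ones numbered 1 with the brightest feature taken in control-injected arrays. Of all genes 5.83% were lower without overlap under quantile normalisation and 4.54% and 4.45% with windows 9 and 25, and 7.66% were higher with that choice of feature. With window 9 the 1 lower junction gene was *cldn8.1*, in place of *cldng* and *cldn7b*, and 3 were higher, against 7.87% of all genes. *cldn8.3*, the 1 junction gene counted at 0.02 as deposited, was itself left out by the filter on dim features. The cause of the other shifts was not tested. The deviations of same-numbered arrays had correlations of 0.17, -0.10 and 0.02 for replicates 1, 2 and 3. *ndr1*-injected replicates 1 and 3 correlated best with the control-injected array of their own number, and replicate 2 with control-injected replicate 3, at 0.21. Whether replicate numbers pair the arrays cannot be decided from these values, since the deviations within a group sum to 0.

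Leaving out each array in turn gave 0 called genes. At an unadjusted p of 0.02 or less by limma 0 to 4 junction genes were higher and 0 to 2 lower, against 1.35% to 5.33% of all genes in either direction. The 4 higher were found without *ndr1*-injected replicate 2, and the 2 lower without control-injected replicate 2. Without overlap 4 to 11 were higher and 3 to 9 lower, where fewer arrays make separation easier (19.0% to 30.8% of all genes). The median of the junction genes was -0.08 to 0.15. *cldna* was at -0.35 with the feature brightest in control-injected arrays, *cldnd* at 0.19 with array weights, and *jupa* at 0.51 with the mean of features and at 0.42 and 0.28 with position subtracted. Without single arrays *cldnd* ran from -0.25 to 0.35, *cldne* from -0.18 to 0.46, *dsg2.1* from -0.014 to 0.73, *jupa* from -0.10 to 0.13 and *pkp1b* from -0.076 to 0.73. The deposited values carry no background or detection data, so how far the dim claudin features exceed background is not known here.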
